A study of Homo sapiens with 4 samples.

Results

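The 10 genes described here are the SOXB, SOXC and SOXE members SOX1, SOX2, SOX3, SOX21, SOX4, SOX11, SOX12, SOX8, SOX9 and SOX10, out of 19974 protein-coding genes on chromosomes 1 to 22 and X. They were taken by name, and every peak of BAF45D at their ends, inside them or within 100 kb of them was collected. SOX14, the other SOXB gene, was not among them and is counted below with the rest of the family. BAF45D, the product of DPF2, is a subunit of the BAF complex, which moves and ejects nucleosomes. Its position on DNA was mapped by CUT&Tag, in which an antibody tethers a transposase that cuts and tags the DNA near its target. The 4 libraries, ESC1, ESC2, NSC1 and NSC2, came from 100000 cells per assay. ESC were cells of H9, an established human embryonic stem cell line, grown in mTeSR1 on Matrigel. NSC were spinal cord neural stem cells made from H9 in N2B27 medium with LDN-193189, SB431542, CHIR-99021, FGF2, FGF8 and DAPT for 10 days. Y-27632, a ROCK inhibitor, was added at passages. Maintenance medium with SB-431542, CHIR-99021 and Hh-Ag 1.5, a Hedgehog agonist, followed, and then medium with FGF2 and EGF. All cells therefore share the genotype of 1 line, and the labels do not say whether the libraries of a cell type came from separate cultures.

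SOX proteins bind DNA through an HMG box, which sits in the minor groove and bends the helix, and they usually act with partner factors. The SOXB1 genes SOX1, SOX2 and SOX3 maintain neural progenitors, and SOX2 is also a core factor of pluripotent cells, where it works with the product of POU5F1. SOX21 is a SOXB2 gene whose product represses and counteracts SOXB1 activity. The SOXC genes SOX4, SOX11 and SOX12 act in precursors and young neurons. The SOXE genes act in neural crest and glia, with SOX9 also active in neural stem cells and cartilage and SOX10 in oligodendrocytes and Schwann cells.

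Each library came with its own list of peaks, and strength is given as the authors' −log10 q, with its percentile among the peaks of the same list. The ESC lists held 4204 and 12533 peaks and the NSC lists 29783 and 24669 (replicates 1 and 2), and the NSC libraries had fewer tags (5377831 and 5566407) than the ESC libraries (18953543 and 20734829). List length and depth thus differed with cell type, and their part in the results below was not tested. With 2 libraries against 2, an exact permutation test has a smallest two-sided p of 0.333, so no test was made and each library's value is given. A gene or region was called NSC-only if NSC1 and NSC2 both had a peak there and neither ESC library did, and ESC-only in the converse case. Of the cell type markers, 2 of 6 neural progenitor genes (NES and VIM) were NSC-only at their ends, and of 7 pluripotency genes L1TD1 was ESC-only and LIN28A was in all libraries. Neural crest markers held 2 NSC-only genes of 6 (PAX3 and SNAI2), neuron markers 1 of 6 (MAP2), fibroblast markers 1 of 5 (LUM), glia markers 0 of 6 and mesoderm markers 0 of 5. Over all coding genes the NSC-only share was 16.2%, so 1 of 6 or 1 of 5 is near the background. Occupancy is not expression, so these counts do not check the cell types by their RNA.

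The promoters of 4 members carried peaks in both libraries of a cell type and had a RefSeq sequence on GRCh38.p14. They are shown ahead of the results at gene ends. SOX11 and SOX8, which were also called at an end in both NSC libraries, had no promoter sequence available. Each is the plus strand, 5′ to 3′, of the 250 bases before the RefSeq start, with capitals for matches on either strand to ACAATG and ACAAAG (HMG core), ATGCAAAT (octamer), GGGCGG (GC box), CCAAT and TATAAA.
SOX2, chr3:181711675-181711924: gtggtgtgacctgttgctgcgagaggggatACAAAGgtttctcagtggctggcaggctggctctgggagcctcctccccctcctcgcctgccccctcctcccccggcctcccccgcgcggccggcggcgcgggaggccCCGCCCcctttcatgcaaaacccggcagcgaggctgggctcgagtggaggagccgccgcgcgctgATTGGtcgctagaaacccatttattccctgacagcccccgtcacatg
SOX4, chr6:21593501-21593750: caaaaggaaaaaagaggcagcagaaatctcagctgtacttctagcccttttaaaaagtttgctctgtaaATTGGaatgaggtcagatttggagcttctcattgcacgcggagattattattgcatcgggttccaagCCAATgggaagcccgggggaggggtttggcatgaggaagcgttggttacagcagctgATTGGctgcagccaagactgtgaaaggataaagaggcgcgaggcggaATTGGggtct
SOX1, chr13:112066899-112067148: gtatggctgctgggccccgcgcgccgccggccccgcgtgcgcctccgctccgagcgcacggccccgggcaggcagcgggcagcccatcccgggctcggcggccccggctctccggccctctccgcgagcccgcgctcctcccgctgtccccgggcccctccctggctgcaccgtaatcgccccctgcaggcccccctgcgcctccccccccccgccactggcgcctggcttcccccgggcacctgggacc
SOX12, chr20:325302-325551: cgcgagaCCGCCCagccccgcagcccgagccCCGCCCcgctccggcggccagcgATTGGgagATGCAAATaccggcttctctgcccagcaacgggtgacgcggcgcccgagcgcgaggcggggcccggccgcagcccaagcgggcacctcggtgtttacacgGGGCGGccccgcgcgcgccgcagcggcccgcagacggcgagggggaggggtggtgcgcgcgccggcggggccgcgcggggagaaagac
The SOX1 and SOX12 windows were very rich in G and C (82% and 79.2%), the SOX2 window was richer than the median (68.8%) and the SOX4 window was poorer (48.8%). The median of 15813 coding promoters was 62.4%. SOX4 held 4 CCAAT matches, as did 1.16% of promoters with 4 or more, while SOX12 held 3 GC boxes (19.7% of promoters had 3 or more) and 1 octamer (1.66% had any). SOX2 held 1 ACAAAG, present in 10.9% of promoters, 1 GC box (56.0%) and 1 CCAAT (34.4%). SOX1 held none of the 6 motifs, as did 19.0% of promoters. ACAATG was found in none of the 4 windows and in 6.68% of all promoters, and TATAAA in none of the 4 and in 9.25%. No matches overlapped each other in the printed windows. These letters describe the windows and do not show a site of BAF45D.

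At gene ends, 2 of the 10 genes carried BAF45D in every library, 4 only in NSC, and 3 in no library. A gene end was the stretch within 1 kb of the start or the end of a gene. SOX2 and SOX4 had a gene-end peak in all 4 libraries, a class that held 5.88% of all coding genes. SOX1, SOX11, SOX12 and SOX8 were NSC-only, a class of 16.2% of genes. Of these 4, SOX8 alone was still NSC-only at a −log10 q of at least 5, and none was with all lists shortened to the length of the ESC1 list. SOX4 stayed in all libraries under both settings and SOX2 under neither. Shares of all coding genes under these settings were not worked out, so the losses are not given as a trait of the members. SOX9 had a peak in NSC1 alone, and SOX3, SOX21 and SOX10 had none, like 51.1% of genes. No member was ESC-only, a class of 0.245% of genes. By library, ESC1 called 2 members (6.67% of coding genes), ESC2 called 2 (22.8%), NSC1 called 7 (42.8%) and NSC2 called 6 (38.1%). A gene-end peak in both NSC libraries was found at 6 members (34.5% of coding genes) and in both ESC libraries at 2 (6.35%). With 10 members, these counts lie above the background shares in ESC1 and in both NSC libraries and near it in ESC2, and the difference has no test.

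**Figure D1:**
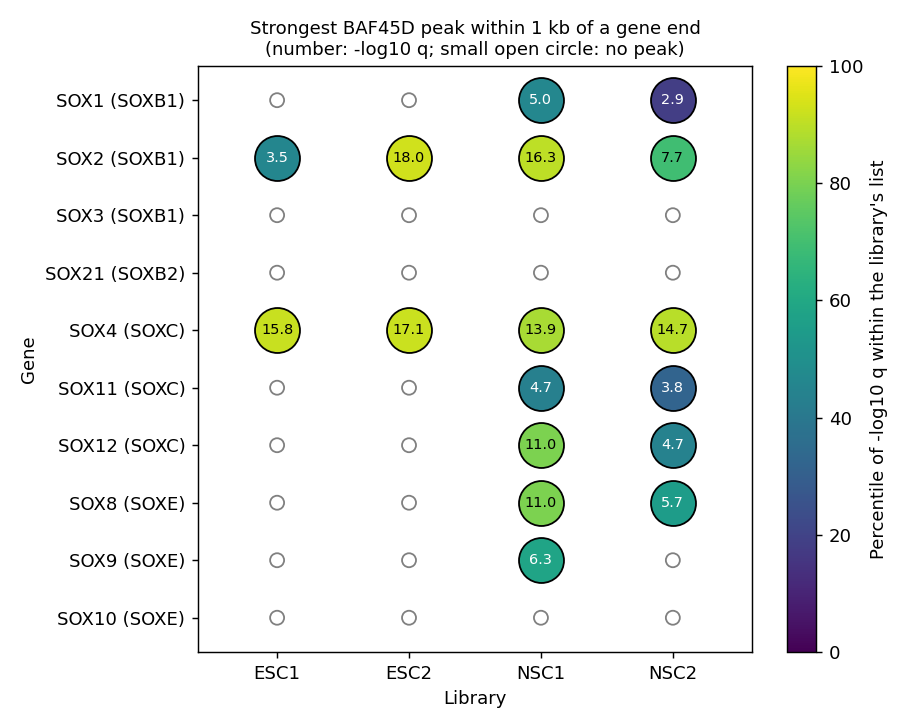
Each circle is the strongest BAF45D peak within 1 kb of an end of the gene in that row, in the library of that column, with its −log10 q as the number and its percentile within the library's list as the colour. Small open circles mark no peak. SOX4 is above the 86th percentile in all 4 libraries, whereas the peaks of SOX1 and SOX11 lie below the 47th percentile.

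At SOX4, the peak sat on the transcription start itself in every library. SOX4 (chr6:21593751-21598619, plus strand) is a SOXC gene active in many progenitor cells. Its −log10 q was 15.8 and 17.1 in ESC1 and ESC2 and 13.9 and 14.7 in NSC1 and NSC2, at the 91.7, 92.2, 86.9 and 89.2 percentiles of the lists. The summits lay at 9, -4, 1 and 9 bp from the start, so the libraries placed the centre of the signal at nearly the same base. The merged region was chr6:21593484-21594151, and it covered between 147 and 250 of the 250 bases printed above. Around SOX4 the window of 100 kb held 1 further region, an ESC2 peak at chr6:21665823-21666423, at the ends of LOC124901483 and CASC15. No NSC-only region lay within 100 kb of SOX4, although 69.7% of coding genes had at least 1.

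At SOX2, occupancy before the start was broad and present in all libraries, but the peaks did not cover the same bases. SOX2 (chr3:181711925-181714436, plus strand) lies inside the noncoding gene SOX2-OT, and no other coding gene lies within 100 kb. Within the merged region chr3:181710558-181711924, of 1367 bp, ESC1 had 2 peaks (−log10 q 4.18 and 3.49) and ESC2 had 2 (5.28 and 18.0). NSC1 and NSC2 each had 1 long peak with 3 summits, of 1186 and 1367 bp, with −log10 q of 16.3 and 7.66. These peaks were longer than or as long as 99.5% and 99.9% of the peaks in their lists. The strongest summits of the gene-end peaks lay at -538, -489, -462 and -190 bp from the start for ESC1, ESC2, NSC1 and NSC2. The 250 bases printed above were covered over 157 bases in ESC2, 188 in NSC1 and 250 in NSC2, and over 0 in ESC1, whose nearest peak ended further upstream. Of the 2 ESC1 peaks, only the weaker was within 1 kb of the gene.

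Past the 3′ end of SOX2, 1 region was NSC-only and another was shared by ESC2 and both NSC libraries. The NSC-only region, chr3:181741503-181741926, lay 27.1 kb past the gene at an end of SOX2-OT, with −log10 q of 9.26 in NSC1 and 5.40 in NSC2. The shared region, chr3:181756656-181757213, lay 42.2 kb past the gene, outside annotated genes. Its −log10 q was 14.0 in ESC2, 10.3 in NSC1 and 12.6 in NSC2, and ESC1 had no peak there. The summit pileup was 22 fragments in each of the 3 libraries. Their depths differ (18953543 tags in ESC2, 5566407 in NSC1 and 5377831 in NSC2), so equal pileups are not equal signal per tag. The summits of the 3 libraries fell between 44908 and 44936 bp after the start. Peaks of a single library lay at chr3:181699625-181699824 in ESC2, at chr3:181782371-181782581 in NSC2, and in NSC1 at chr3:181701996-181702332, chr3:181735898-181736170 and chr3:181742301-181742722. Their −log10 q ran from 1.94 to 6.56.

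SOX1 carried different regions in the 2 cell types. SOX1 (chr13:112067149-112071706, plus strand), a marker of neural commitment, lies inside the noncoding gene SOX1-OT, and no other coding gene lies within 100 kb. The NSC-only promoter region chr13:112066339-112067057 ended 92 bp before the start, with −log10 q of 5.00 in NSC1 and 2.93 in NSC2, at the 46.2 and 18.3 percentiles. The NSC1 and NSC2 peaks held 11 and 8 fragments at their summits, against a lowest pileup of 4 in both lists, so this call rests on few fragments. A second NSC-only region, chr13:112161870-112162201, lay 90.2 kb past the 3′ end (6.34 and 5.34). Both ESC-only regions of the whole set of 10 genes were at SOX1, and 1.40% of coding genes had at least 2 within 100 kb. The nearer one, chr13:112078584-112079395, began 6.88 kb past the 3′ end, with −log10 q of 3.01 in ESC1 and 2.21 in ESC2, and the 2 peaks overlapped by only 37 bp. The farther one, chr13:111974702-111975221, ended 91.9 kb before the start (5.46 and 1.53). When an overlap of 50 percent of the shorter peak was required, the nearer region was no longer ESC-only.

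Peaks of 1 library made up the rest at SOX1. In NSC1 they lay 786 bp past the 3′ end at chr13:112072492-112072773 (−log10 q 5.01), at chr13:111974242-111974441 and at chr13:112161391-112161742. NSC2 had one at chr13:112164046-112164245, ESC1 one at chr13:112014870-112015069 and ESC2 one at chr13:111975312-111975683. The NSC1 peak at chr13:111974242-111974441 and the ESC-only region 91.9 kb upstream thus stood side by side without overlap.

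SOX3 was the least occupied SOXB1 gene. SOX3 (chrX:140502985-140505069, minus strand), which acts in neural and pituitary development, had no peak in the gene or at its ends in any library. Within 100 kb there was an ESC2 peak 3.08 kb before the start, chrX:140508151-140508426 (−log10 q 3.06), and an NSC2 peak 90.5 kb past the 3′ end, chrX:140412166-140412521 (4.27). Neither was shared with another library.

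SOX21 had no peak at its ends and, with all libraries used, the most NSC-only regions around it of the 10 genes. SOX21 (chr13:94709622-94712545, minus strand) had 5 NSC-only regions within 100 kb and no ESC peak. NSC1 had 7 peaks there, NSC2 had 5, and both ESC libraries had 0. At least 5 NSC-only regions lay within 100 kb of 5.07% of coding genes, and at least 5 with no ESC peak at 0.541%. The other coding gene within 100 kb was GPR180, and none of the regions lay at its ends. The order of the genes was not stable: without ESC2, SOX12 had 6 NSC-only regions against 5 at SOX21, at a −log10 q of at least 5 both had 2, and with lists of equal length both had 0. Since the gene was described with earlier counts of these peaks known, these shares are a description.

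The regions near SOX21 formed a cluster on the 3′ side and single sites on the 5′ side. On the 3′ side, chr13:94707994-94708452, chr13:94706779-94707234 and chr13:94706404-94706665 lay 1.17, 2.39 and 2.96 kb past the end of SOX21, inside the noncoding gene LINC00391. The first of these, at an end of LINC00391, had −log10 q of 7.74 in NSC1 and 7.62 in NSC2. The second had 6.93 and 3.55, and the third had 3.20 and 4.17. At least 3 NSC-only regions within 10 kb were found for 4.09% of coding genes. On the 5′ side, chr13:94722551-94723393 lay 10.0 kb before the start and was the strongest of the 5 in NSC1 (10.3 in NSC1, 6.95 in NSC2, each peak with 2 summits). The fifth, chr13:94758485-94759005, lay 45.9 kb before the start and overlapped the pseudogene BRD7P5 (3.65 and 6.19). NSC1 alone also had peaks at chr13:94641410-94641866 and chr13:94656757-94657008, on the 3′ side. With gene ends widened to 2.5 kb, SOX21 entered the NSC-only class.

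**Figure D2:**
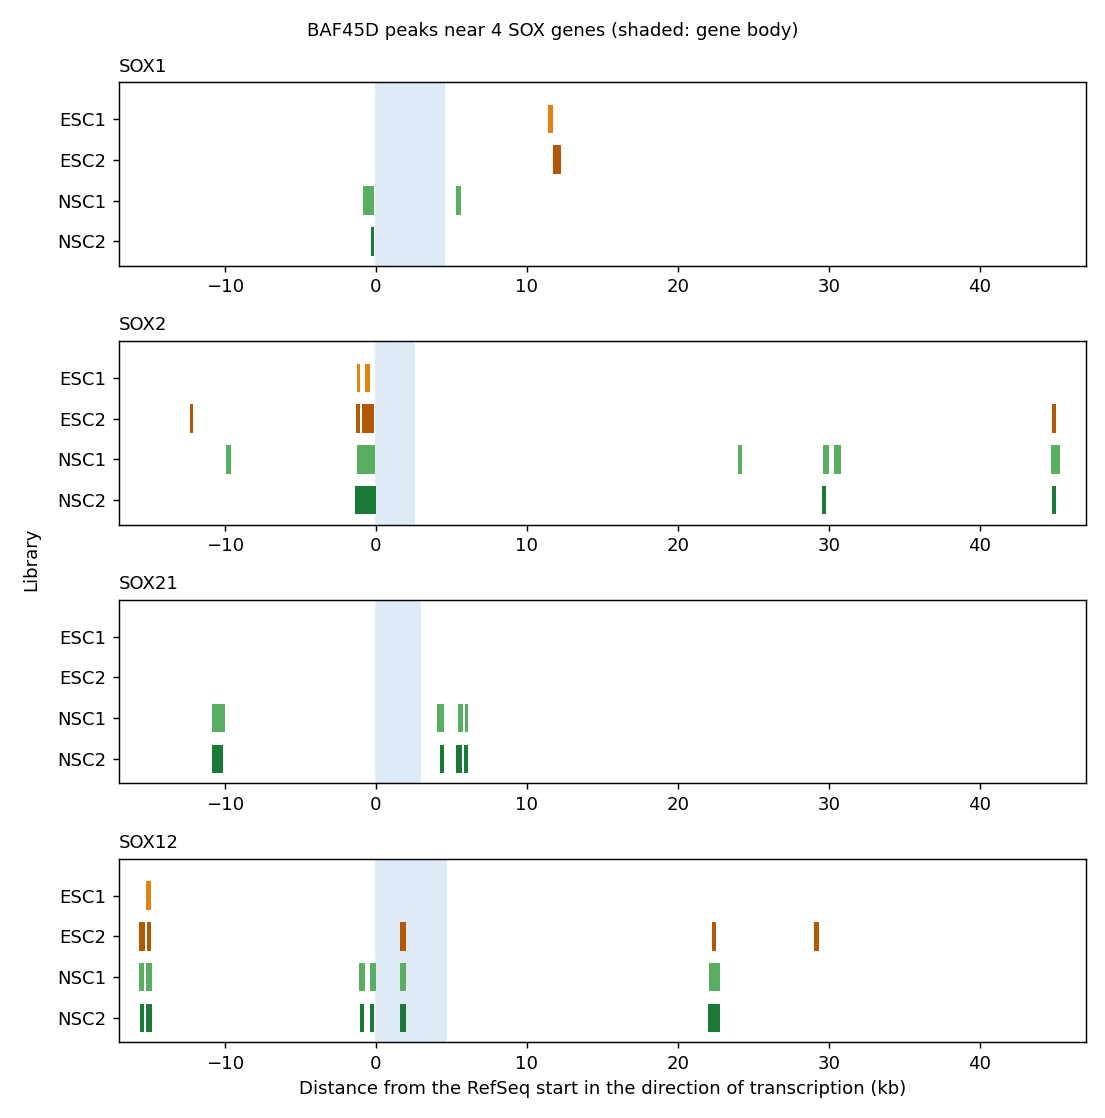
Peak intervals of each library around SOX1, SOX2, SOX21 and SOX12, with the distance from the RefSeq start in the direction of transcription (kb) on the horizontal axis, 1 row per library and the gene body shaded. NSC peaks flank SOX21 on both sides where ESC libraries have none, all 4 libraries have peaks before the start of SOX2, and NSC and ESC peaks stand at separate places near SOX1.

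SOX11 paired a weak NSC-only call at the gene with a site shared by all libraries beyond it. SOX11 (chr2:5692384-5701385), a marker of young neurons, has no other coding gene within 100 kb. The NSC-only region chr2:5691814-5692504 lay over the lower-coordinate end of the gene, with −log10 q of 2.39 in NSC1 and 3.84 in NSC2, at the 10.5 and 31.8 percentiles. Its fold enrichment over the local background was 3.23 in NSC1 and 4.19 in NSC2. NSC1 alone had another peak 797 bp below that end, chr2:5691284-5691587 (4.75). Ends of the noncoding genes LINC01248 and LOC124908052 lay within 1 kb of both, so the signal cannot be given to SOX11 alone. The shared region chr2:5725929-5726502 lay 24.5 kb from the upper end, at an end of LOC112268411. Its −log10 q was 7.70 and 19.1 in ESC1 and ESC2 and 9.60 and 10.3 in NSC1 and NSC2, so in both NSC lists it ranked above the peaks at the gene, and the ESC lists had none at the gene. With all lists shortened to equal length, only the ESC peaks of this site were kept.

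SOX12 had the most peaks of the 10 genes in ESC2, NSC1 and NSC2, though not in ESC1, and the most coding genes around it. SOX12 (chr20:325552-330224, plus strand) had 1 and 6 peaks within 100 kb in ESC1 and ESC2 and 8 and 7 in NSC1 and NSC2, and 8 other coding genes lie in that window. At the start, the NSC-only regions chr20:324479-324851 (−log10 q 11.0 in NSC1 and 4.72 in NSC2) and chr20:325187-325562 (6.27 and 4.68) also overlapped NRSN2-AS1, a noncoding gene. The second covered 250 of the 250 bases printed above in NSC1 and 161 in NSC2. Inside the gene, chr20:327169-327577 had a peak in ESC2 (3.01), NSC1 (14.6) and NSC2 (6.48), so SOX12 as a whole was not without ESC signal. With gene ends widened to 2.5 kb this ESC2 peak took SOX12 out of the NSC-only class.

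The strongest site near SOX12 lay upstream, away from coding gene ends. This region, chr20:310343-310729, 14.8 kb before the start, was called in all libraries. Its −log10 q was 8.67 and 12.4 in ESC1 and ESC2 and 39.2 and 19.7 in NSC1 and NSC2, at the 82.1, 86.9, 99.0 and 94.2 percentiles. Its neighbour chr20:309882-310276 was called in ESC2 (6.46), NSC1 (9.73) and NSC2 (14.5), and ESC1 had no peak there. Further regions lay at other genes. These were chr20:347572-348364 at NRSN2 and LOC101929937, in ESC2 (4.56), NSC1 (11.0) and NSC2 (9.82), and the NSC-only chr20:407711-408021 at RBCK1 (3.13 and 4.42). Single-library peaks were found at RBCK1 (chr20:407126-407434) and NRSN2 (chr20:354595-354881) in ESC2 and at C20orf96 (chr20:290156-290548) in NSC1.

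SOX8 was the SOXE gene with a call in both NSC libraries. SOX8 lies at chr16:981770-986979. The NSC-only region chr16:980835-981613 ended 157 bp below its lower end, with −log10 q of 11.0 in NSC1 and 5.67 in NSC2, at the 80.4 and 54.9 percentiles. It also overlapped LMF1, which encodes a lipase maturation factor, and the noncoding gene CEROX1, and an end of LMF1 lay within 1 kb. The strongest site near any of the 10 genes was chr16:1025179-1025816, 38.2 kb from the upper end of SOX8 and inside LOC102723753. It had −log10 q of 46.9 and 43.9 in ESC1 and ESC2 and 145 and 164 in NSC1 and NSC2, and ranked 110, 191, 10 and 12 in the lists. It was not at the end of a coding gene, and whether it concerns SOX8 was not tested. The other peaks in the window were chr16:914515-914770 in ESC2, inside LMF1, and chr16:1002622-1003008 in NSC1.

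SOX9 and SOX10, the neural stem cell and glial members, had no region called in both NSC libraries. SOX9 (chr17:72121020-72126416) had an NSC1 peak over its lower end, chr17:72120794-72121068, with −log10 q of 6.29 and 15 fragments at the summit, and NSC2 had none. An end of SOX9-AS1 lay within 1 kb of it. Elsewhere within 100 kb there was an NSC1 peak at chr17:72151617-72151816 (3.40) and an ESC2 peak at chr17:72030553-72030891 (3.73), inside LINC01152. Long-range sequence beyond 100 kb was not analysed here. SOX10 (chr22:37972312-37984555) lies inside the annotated span of POLR2F, an RNA polymerase subunit gene. Inside SOX10, NSC1 had a peak of 4 fragments, chr22:37979827-37980026, with −log10 q of 1.36 at the 0.374 percentile, close to the threshold of the list. The shared region of this locus, chr22:37953309-37953952, in ESC2 (3.03) and NSC2 (4.50), lay 18.4 kb below SOX10 at the ends of POLR2F and C22orf23. Single peaks lay at chr22:37887800-37887999 in NSC2 and at chr22:38032864-38033073 and chr22:38057057-38057256 in NSC1.

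**Figure D3:**
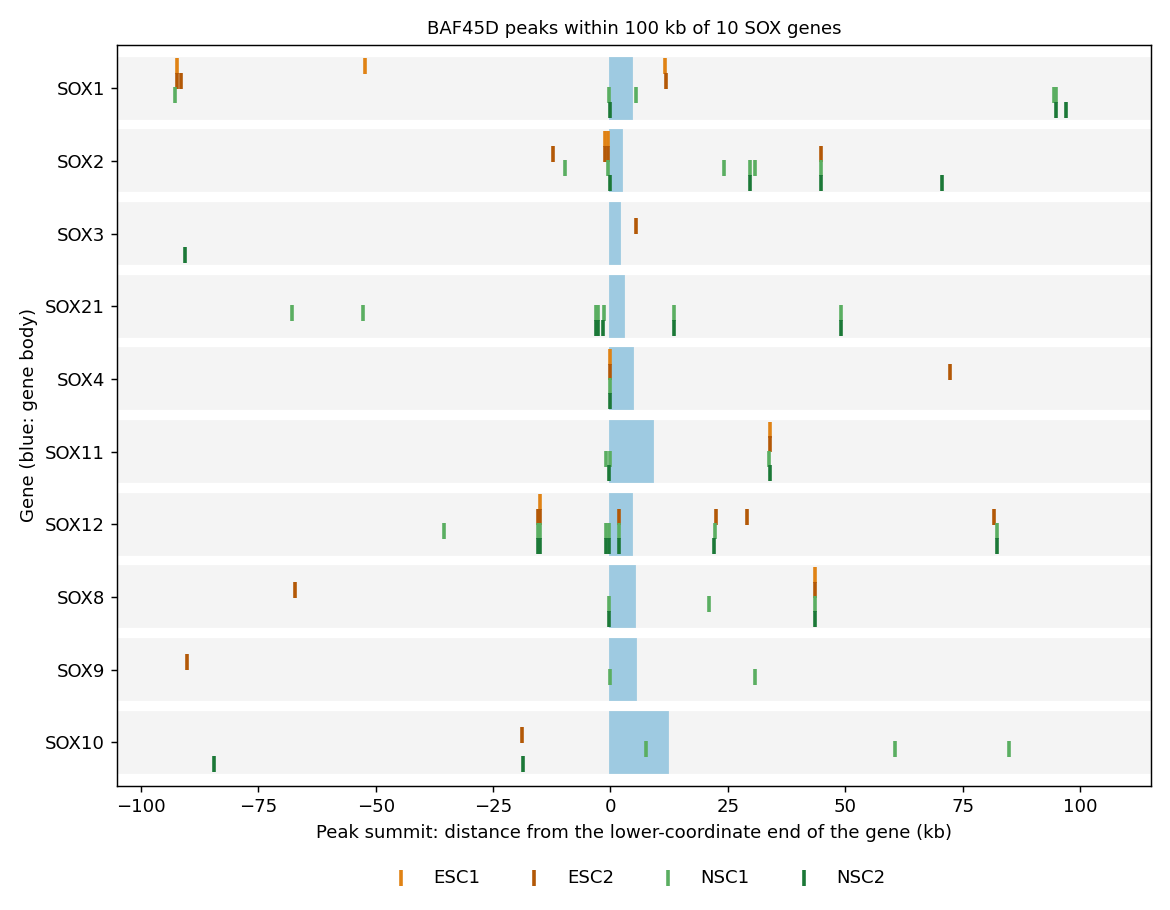
Peak summits of each library (coloured ticks, 1 line per library) against the distance from the lower-coordinate end of each gene (kb), with the gene body in blue. Ticks of all 4 libraries line up at SOX4, at the lower end of SOX2, 15 kb below SOX12, and on the upper side of SOX11 and SOX8.

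The windows of 100 kb around the 10 genes held 54 regions. NSC-only regions numbered 13, ESC-only regions 2, and regions found in every library 5. SOX21 held 5 of the NSC-only regions, SOX12 held 3, SOX1 held 2, SOX2, SOX11 and SOX8 held 1 each, and SOX3, SOX4, SOX9 and SOX10 held 0. At least 1 NSC-only region lay near 6 of 10 members and 69.7% of coding genes, at least 1 ESC-only region near 1 member and 8.31% of genes, and at least 1 region of all libraries near 5 members and 24.7% of genes. The median number of NSC-only regions was 1 for the members and 1 for all coding genes, and the means were 1.3 and 1.54. Within 10 kb, an NSC-only region lay at 5 members (34.6% of coding genes), an ESC-only region at 1 (2.28%) and one of all libraries at 2 (8.96%). Of all 44534 regions of the series, 30.6% were NSC-only, 1.65% ESC-only and 3.27% in all libraries, against 24.1%, 3.70% and 9.26% of those near the members. By place, 10 regions were at member ends, 2 inside members, 6 within 10 kb and 36 farther away. Of these 10 regions at member ends, 5 were NSC-only (30.6% of all regions), 0 ESC-only (1.65%) and 2 in all libraries (3.27%). The other 3 were in 1 NSC library alone (24.7% of all regions for NSC1 and 13.0% for NSC2). Shares over regions at the ends of all genes were not worked out, so these counts are a description. Of the 54 regions, 29 were in 1 library alone, 16 of them in NSC1 (29.6% of the 54, against 24.7% of all regions of the series), 8 in ESC2 (14.8% against 14.6%), 4 in NSC2 (7.41% against 13.0%) and 1 in ESC1 (1.85% against 3.66%). Without NSC2 the NSC-only regions numbered 29, and without ESC1 the ESC-only regions numbered 10 and those of all libraries 9.

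The subgroups hold 1 to 3 genes each, so their counts are given without a test. The SOXC genes had 4 NSC-only regions and 3 of all libraries among 15, and SOX4, SOX11 and SOX12 were each called at an end in both NSC libraries. The SOXB1 genes had 3 NSC-only, 2 ESC-only and 1 of all libraries among 20, and SOX21 had 5 NSC-only among 7. The SOXE genes had 1 NSC-only and 1 of all libraries among 12. Regions of a single library were 9 of the 12 there, 13 of 20 at SOXB1 genes, 5 of 15 at SOXC genes and 2 of 7 at SOX21. Over all regions of the series, 30.6% were NSC-only, 1.65% ESC-only and 3.27% in all libraries. A further 24.7% were in NSC1 alone, 14.6% in ESC2 alone, 13.0% in NSC2 alone and 3.66% in ESC1 alone.

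In number of peaks, NSC exceeded ESC around the members, as it did over all coding genes. The order around the members turned once list length was taken into account. ESC1 had 9 peaks in the windows, ESC2 21, NSC1 38 and NSC2 27. The mean was 15 ± 8.49 for ESC and 32.5 ± 7.78 for NSC (SD over 2 libraries, n = 2), and the groups did not overlap. Over all coding genes, the mean number per gene was 0.653 and 2.14 in ESC1 and ESC2 and 3.92 and 3.31 in NSC1 and NSC2. The groups did not overlap there either, so the separation is not particular to the members. Per 1000 peaks of its list, the windows held 2.14 and 1.68 peaks in ESC1 and ESC2 and 1.28 and 1.09 in NSC1 and NSC2. On this scale both ESC libraries were above both NSC libraries. The same scale was not worked out for all coding genes, so the turn is not given as a trait of these genes. At least 1 peak lay within 100 kb of 6 members in ESC1 (41.3% of coding genes), and of 9 members in ESC2 (79.3%), NSC1 (90.5%) and NSC2 (88.9%). No ESC peak lay near 1 member, SOX21, and near 18% of coding genes. SOX21 was 0 in both ESC libraries and 7 and 5 in NSC1 and NSC2, and SOX4 was 1 and 2 in ESC1 and ESC2 and 1 in each NSC library.

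**Figure D4:**
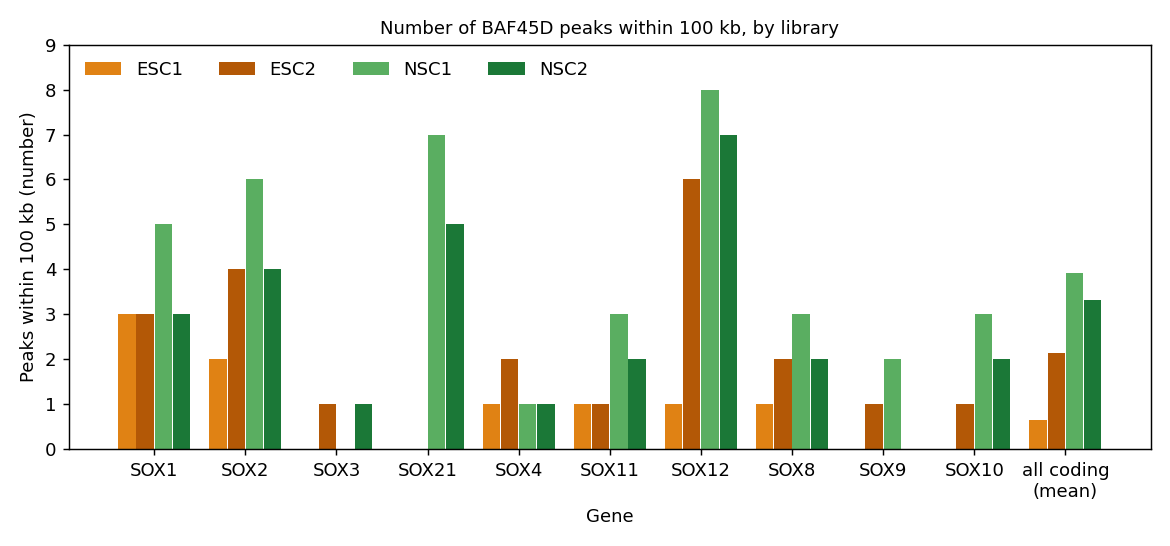
Bars give the number of BAF45D peaks within 100 kb of each gene in each library, with the mean over all coding genes at the right (0.653 and 2.14 in ESC1 and ESC2 and 3.92 and 3.31 in NSC1 and NSC2). SOX12, SOX21 and SOX2 exceed the means in both NSC libraries, SOX1 in NSC1 alone, and the other 6 genes stay below them in both.

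Of 9 other SOX genes on these chromosomes, 3 had a gene-end peak in some library, and 0 fell into the NSC-only, ESC-only or all-library classes. Over all coding genes, 51.1% had no gene-end peak, 16.2% were NSC-only, 0.245% ESC-only and 5.88% in all libraries. The difference from the 10 members was not tested. SOX6, a SOXD gene of neural and cartilage development, had gene-end peaks in ESC2 (6.18), NSC1 (11.6) and NSC2 (2.87). SOX5 had one in NSC1 (2.41), the same calls as SOX9, and SOX13 had one in NSC2 (4.90). SOX7, SOX14, SOX15, SOX17, SOX18 and SOX30 had none, the same calls as SOX3, SOX21 and SOX10. SOX14, the other SOXB2 gene, had no peak within 10 kb in any library, whereas SOX21 had 3 NSC-only regions within that distance. Within the long genes SOX5 and SOX6 or within 10 kb of them, NSC1 had 20 and 16 peaks and NSC2 had 17 and 12. ESC2 had 3 and 1 there, and ESC1 had 0. These counts are not scaled for gene length or list length, and the NSC lists are the longer ones. No value over other long genes was worked out.

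Among genes known to act with or below these factors, NSC-only calls were about as frequent over the 3 lists together as over all coding genes. In the SOXB1 list 2 of 9 were NSC-only, namely the POU factor gene POU3F2 (27.2 in NSC1 and 22.0 in NSC2) and NES (7.41 and 3.01), which encodes nestin. LIN28A, which blocks let-7 maturation, was in all libraries (7.96, 16.4, 11.4 and 5.19), and POU5F1, NANOG, POU3F1, PAX6 and FGF4 had no gene-end peak. In the SOXE list 4 of 15 were NSC-only. These were PAX3 (12.04 and 9.82) and SNAI2 (11.3 and 7.83) of the neural crest, the melanocyte factor MITF (3.96 and 3.56) and OLIG2 (4.45 and 7.36) of motor neuron and oligodendrocyte precursors. Gene-end peaks in ESC2 and both NSC libraries, with none in ESC1, were found at TEAD2 of the SOXC list (36.7, 38.0 and 34.7) and at ERBB3 (13.7, 17.7 and 14.8) and NFIA (4.07, 7.27 and 14.5) of the SOXE list. TEAD2 encodes a factor of the Hippo pathway, ERBB3 a neuregulin receptor and NFIA a factor of gliogenesis. Of all regions of the series, 5.97% had this set of libraries. The share of coding genes with it at an end was not worked out. TEAD2, ERBB3 and NFIA were picked after their values were seen, so they are a description. The remaining partner genes called at an end, POU3F3, STMN2, NEUROG2 and S100B, had other sets of libraries. In the SOXC list 0 of 7 were NSC-only, and 0 of the 31 genes of the 3 lists were ESC-only. Over all coding genes 16.2% were NSC-only and 0.245% ESC-only. The NSC-only shares of the SOXB1 and SOXE lists lie above 16.2% and that of the SOXC list below it, each by few genes. No difference was tested.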

How the data were processed

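BAF45D CUT&Tag was analysed from 4 peak lists, 1 per library. Per the submitters' processing notes, the tools used on the reads were BWA 0.7.12, Trimmomatic and FastQC, with genome build hg38. Per the file headers, MACS2 2.1.0.20150420 called peaks in each library alone, with no control, at a q threshold of 0.05, a shift of -100 bp and an extension of 200 bp, from 5377831 to 20734829 tags. The deposited pileup is a signal value at the summit, in fragments. The deposited fold enrichment (a ratio) and the authors' −log10 values of p and q are relative to the local background of the same library. Strength was therefore ranked within a list. The exception was the alternative −log10 q of at least 5, where the same cutoff was applied to all lists. A site with no peak did not pass that threshold.

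Entries with the same interval were joined. Peaks overlapping by at least 1 bp were merged into regions. Genes came from a RefSeq table of GRCh38.p14 and promoter letters from a RefSeq sequence table of the same build, which held 6 of the 10 members; exons were not used here. Ends of the other members are named by coordinate. The functions were tested on simulated data with Python 3.11.15 and pandas 2.3.3. Members, lists and tests were chosen with earlier results of these data known. All members and all their regions are named. So are other SOX genes called at an end and partner genes that were NSC-only, ESC-only or in all libraries. TEAD2, ERBB3 and NFIA were added after their values were seen. POU3F3, STMN2, NEUROG2 and S100B were then added to complete the partner genes called at an end. Alternatives were a −log10 q of at least 5, equal list length, 50 percent overlap, gene ends of 0.5 and 2.5 kb, a window of 50 kb, each summit counted, regions at ends of other coding genes left out, and each library left out.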

Additional observations from a re-analysis of the deposited data

How the results depend on the processing

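The classes of gene-end calls among the members depended on peak strength. Shares of all coding genes under the settings below were not worked out. At a −log10 q of at least 5, 1 member was NSC-only (SOX8) and 1 was in all libraries (SOX4), and there were 7 NSC-only and 0 ESC-only regions within 100 kb, with a mean of 18.5 NSC peaks. Of these 7 regions, 5 were NSC-only in the full lists, and 2 at SOX12 became so because their ESC2 peaks were below 5. With all lists shortened to the length of the ESC1 list, 0 members were NSC-only and 1 (SOX4) was in all libraries. Within 100 kb there were then 0 NSC-only regions and 3 of all libraries (at SOX4, SOX12 and SOX8), with a mean of 5 NSC peaks. The 1 ESC-only region under this setting was the SOX11 site that all full lists held, and both ESC-only regions of SOX1 were lost. The ESC-only regions numbered 1 with 50 percent overlap and 1 in a window of 50 kb. With 1 library left out in turn, NSC-only members ranged from 4 to 5, ESC-only members stayed at 0 and members in all libraries at 2. NSC-only regions then ranged from 13 to 29 (29 without NSC2), ESC-only regions from 2 to 10 (10 without ESC1) and regions of all libraries from 5 to 9 (9 without ESC1). The mean number of NSC peaks ranged from 27 to 38 and that of ESC peaks from 9 to 21. The other settings moved no count over all 10 genes by more than 1.5 times and neither mean by more than its SD. Counts for single genes moved in 22 of 90 cases, for instance to 0 NSC-only regions at SOX8 when regions at ends of other coding genes were left out and to 1 at SOX1 in a window of 50 kb. No paired analysis was possible because the results are counts of peaks that come from no test. Peaks are called against the local background of the library, and a missing peak sets no upper limit on occupancy. Depth ran from 5377831 to 20734829 tags, and its part in which sites passed was not tested.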
